A study of Equus caballus with 2 samples.

Results

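The exon-sized unmasked tags were 3497 of the 19257 sequence tags that the RNA-seq of stallion sperm gave, or 18.5% of the 18952 tags on ECA1 to ECA31 and ECAX. A tag is a stretch of the horse reference sequence EcuCab2 where aligned reads clustered. The members were chosen by 3 measured or printed properties: a length of at least 100 and under 300 bp, an average coverage (AC) under 100, and a sequence written wholly in upper case, which by the usual convention marks sequence outside masked repeats. Total RNA came from the sperm of 2 reproductively normal, fertile stallions, whose ages the labels do not give, with somatic cells and immature sperm removed on an EquiPure density gradient. There was no treatment and no other group. The deposited table holds 1 AC value per tag, which for nearly all tags that could be checked is the larger of the values of the 2 stallions, so no value below has a replicate error. The intervals given are 95% Wilson intervals, and for differences Newcombe intervals. They cover counting error only, and neighbouring tags of a gene are not independent.

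Mature sperm have little cytoplasm, a tightly packed nucleus and almost no transcription, and the RNA they carry is held to be mostly left from spermatogenesis. Internal exons of mammalian protein-coding genes are typically of the size of these tags, lie apart by introns, and must keep 1 reading frame free of stop codons. An annotation of EcuCab2 was not used here, so overlap with exons was not measured and "exon-sized" refers to length alone. The sequence itself allows descriptions that the selection did not use directly: stop-free reading frames, spacing and letters at the tag edges. Likeness between tags is also given, though leaving out masked repeats bears on it. It also bears on each contrast of members with masked tags, which the letter case of the selection set apart.

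The study's own tables of gene and microRNA loci place names on 9 members, and 3 of these lie at protein-coding genes of known interest in sperm. Their sequences are printed 5′ to 3′ on the forward strand of EcuCab2, with the longest stretch free of stop codons on either strand in capitals.
PKM2 upstream tag, chr1:121092067-121092223: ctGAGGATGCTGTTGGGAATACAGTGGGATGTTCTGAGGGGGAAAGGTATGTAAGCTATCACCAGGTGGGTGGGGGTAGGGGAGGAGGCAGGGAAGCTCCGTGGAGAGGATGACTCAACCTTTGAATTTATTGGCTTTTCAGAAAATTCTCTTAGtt
CRISP3 tag, chr20:47702610-47702757: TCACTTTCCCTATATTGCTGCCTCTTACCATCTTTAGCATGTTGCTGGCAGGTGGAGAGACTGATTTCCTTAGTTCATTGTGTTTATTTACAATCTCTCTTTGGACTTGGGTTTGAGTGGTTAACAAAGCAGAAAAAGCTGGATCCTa
PRM1 downstream tag, chr13:33210585-33210872: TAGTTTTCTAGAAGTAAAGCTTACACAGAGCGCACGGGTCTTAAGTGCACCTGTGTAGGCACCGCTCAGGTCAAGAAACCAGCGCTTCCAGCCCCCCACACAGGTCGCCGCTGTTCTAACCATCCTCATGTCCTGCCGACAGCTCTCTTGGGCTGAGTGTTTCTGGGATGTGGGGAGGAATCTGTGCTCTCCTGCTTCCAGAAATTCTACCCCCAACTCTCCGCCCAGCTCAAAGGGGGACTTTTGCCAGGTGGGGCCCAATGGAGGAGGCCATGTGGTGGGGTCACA

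The tag 5′ of PKM2, a pyruvate kinase of glycolysis, had an AC of 94.16 over 157 bp. Its stop-free stretch of 153 bases lay on the reverse strand. The nearest other tag was 5415 bp away and the nearest other member 26772 bp away. The tag listed for CRISP3, which encodes a cysteine-rich secretory protein, had an AC of 36.04 over 148 bp, and 1 forward frame was open for 147 bases. The study's table assigns it to no exon of the gene model. The tag 3′ of PRM1, toward TNP2, had an AC of 10.93 over 288 bp and 1 open reverse frame across the whole tag. Protamine 1 and transition protein 2 replace histones in the sperm nucleus. The 12 tags of all sizes at this locus had AC values of 7.2 to 1730.25. The study chose these genes partly for their high coverage in these data, so the values are no check of the tissue. By that table none of these 3 tags lies in an exon of the gene that names it. Each held a stop-free frame through its whole length, as did 83.0% of all members. By the order of positions in the same table PKM2 and PRM1 run forward. The open frames of their tags thus lie on the opposite strand. The study proposes an additional exon for the PKM2 tag. For the CRISP3 tags it names additional 5′ exons or an inaccurate annotation as possible.

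The remaining 6 named members were tags to which the study's tables give 9 microRNA names in all. The study's annotation allowed a window of 20 kb on either side of a gene. Hairpin sequences were not searched here. Whether these tags hold the named microRNAs was therefore not measured. MicroRNAs are short RNAs that pair with messenger RNAs and lower their translation or stability. The tag at MIR130A on ECA12 had the highest AC of the 6, 41.41 over 155 bp. The tags at MIR190B, MIR1905A and MIR212 had AC values of 32.97, 29.33 and 25.76. The tag at MIR99B, MIR125A and MIRLET7E, 3 microRNAs of 1 cluster, had an AC of 15.44 over 260 bp. The tag at MIR192 and MIR194 was lowest, with an AC of 8.94 over 103 bp. Each of these tags is longer than a mature microRNA, which the lower length limit of 100 bp makes certain. The MIR1905A tag, of 274 bp, was the only one of the 9 named members with no stop-free frame.

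AC, a value used for selection, lay mostly far below the limit of 100. The median AC of the members was 12.73, with a 10th percentile of 7.5 and a 90th of 35.6. By the limits of the study's expression classes, 2465 members (70.5%) had high expression (AC over 10 and under 100) and 1032 (29.5%) medium expression (AC of 1 to 10). The study's methods set these classes by the sum of AC values. The deposited value is mostly the larger value of both stallions, so the classes may differ. Over all tags the study reports medium expression as the larger class. On the deposited values, however, other sets with an AC under 100 were mostly above 10 too. The lower quartile of AC was 9.54 in members and 10.69 in unmasked tags of 24 to 34 bp. It was 10.1 in unmasked tags of 300 bp or more. Wholly and partly masked tags of the same length had 9.6 and 10.03. The share above 10 is therefore not particular to the members. The members made up 23.6% of all bases in tags, but 0.552% of the sum of AC times length. Most were short: 1797 members (51.4%) had 100 to 149 bp, 1010 had 150 to 199 bp, 430 had 200 to 249 bp and 260 had at least 250 bp. The median AC in these length classes was 12.63, 12.60, 13.22 and 12.61. Spearman's rho of AC with length was 0.03 over 3497 members, a description of 2 values that the selection itself limited. The rho of AC with GC content was -0.05. These points share libraries and, for neighbours, genes.

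The 10 members of highest AC were spread over 9 chromosomes. The member at chr24:34534093-34534277 had an AC of 99.96 and that at chr25:38397643-38397802 had 99.48. Next came a pair on ECA13, at chr13:18986058-18986305 (AC 99.39) and chr13:18986709-18986832 (AC 97.83). All 10 had at least 1 stop-free frame. At the AC limit, the nearest unmasked tags outside it had 100.05, 100.52 and 101.04, next to 99.96, 99.48 and 99.39 inside it. At the lower end, 1 member on ECA1 had an AC of 2.0, and the next lowest had 5.14 and 5.15. At the length limits, 47 members had exactly 100 bp (median AC 12.04), and 45 comparable tags outside had 99 bp (median AC 15.97). At the upper limit, 5 members had the greatest length allowed and 3 tags outside had 300 bp. A further 20 tags of this length and AC had 1 to 5 lower-case letters and so fell outside.

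Members were unevenly spread over the chromosomes. ECA11 held 533, ECA10 443, ECA13 344, ECA1 300, ECA16 282 and ECA12 268, while ECA29 held 6 and ECAX 20. As a share of the tags of the chromosome, members were 34.6% on ECA12 (interval 31.3 to 38.0), 34.5% on ECA11, 33.6% on ECA13 and 30.5% on ECA10. At the other end stood ECA8 with 4.03%, ECA29 with 4.26% and ECAX with 5.13% (interval 3.34 to 7.79).

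**Figure D1:**
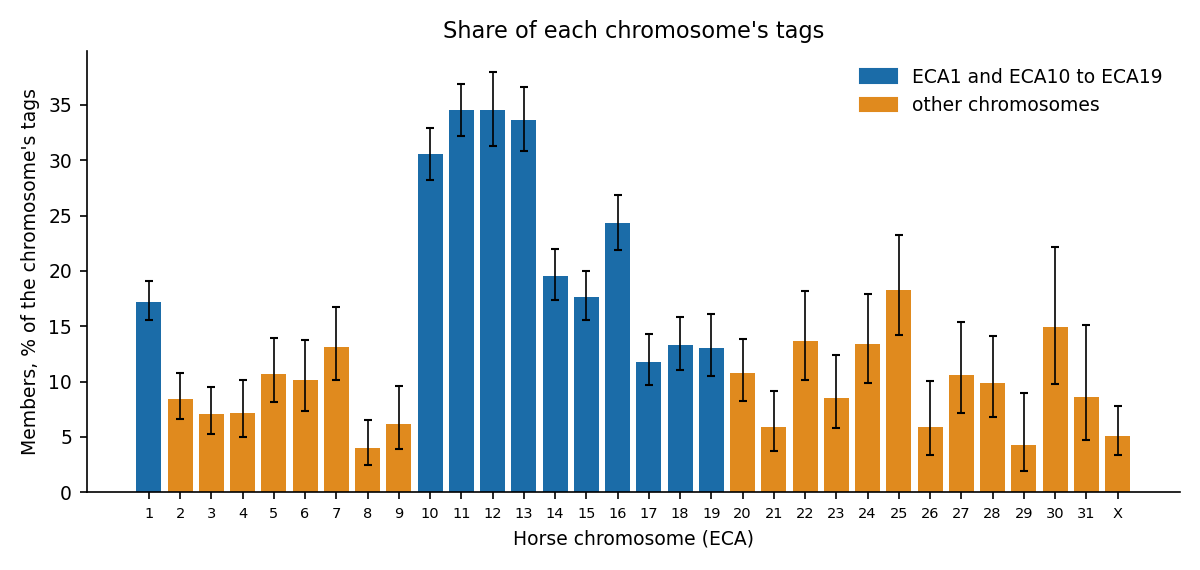
Members as a percentage of all tags on each horse chromosome (ECA), with 95% Wilson intervals as error bars. ECA10 to ECA13 stand above 30%, and apart from ECA25 the chromosomes from ECA2 to ECA9 and from ECA20 on stand below 15%.

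The 11 chromosomes whose number begins with 1 (ECA1 and ECA10 to ECA19), which come first in the deposited table, held 2866 of the 3497 members, 82.0% (interval 80.6 to 83.2), against 63.9% of all placed tags. This was not particular to the members: unmasked tags of 300 bp or more had 532 of 648 (82.1%) there. Wholly and partly masked tags of the same length and AC had 70.9 and 69.2%, and small unmasked tags of 24 to 34 bp had 56.4%. Members were 23.7% of the tags on these 11 chromosomes and 9.21% of those on the other 21. The groups overlapped: ECA17, ECA18 and ECA19 had 11.8, 13.3 and 13.1%, within the range of the other group, and ECA25 with 18.3% stood above ECA1 with 17.2%. Unmasked tags of the same length with an AC of 100 or more went the other way: 66 of 163, or 40.5%, lay on the 11 chromosomes, a difference of 41.5 percentage points (interval 33.7 to 48.8). Of the 455 members with an AC under 8, 435 lay on the 11 chromosomes and 20 on the others. The 10th percentile of AC was 7.21 on the 11 chromosomes and 9.55 on the others, and the medians were 12.49 and 13.96. Length did not show this split, with medians of 148 and 147 bp. Whether the filtering of tags was the same along the table was not tested, so the shares may not be comparable between chromosomes. The results below are given for both groups of chromosomes where it matters.

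**Figure D2:**
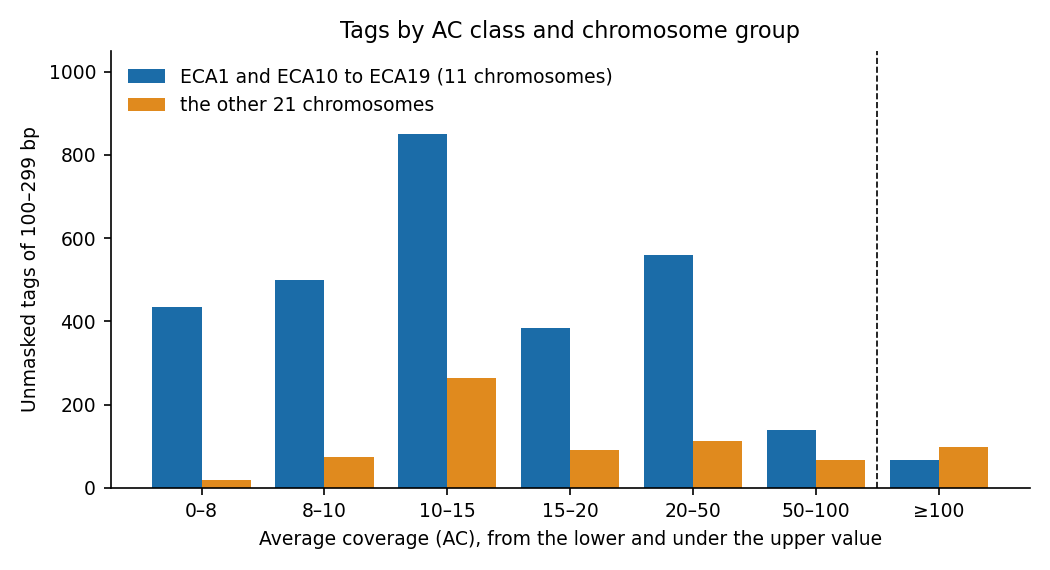
Number of unmasked tags of at least 100 and under 300 bp in each AC class, for ECA1 and ECA10 to ECA19 (blue) and for the other 21 chromosomes (orange); members are left of the dashed line. Below an AC of 8 the counts are 435 and 20, and at an AC of 100 or more they are 66 and 97.

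Stop-free frames were common among the members. In 2903 of 3497 (83.0%, interval 81.7 to 84.2), at least 1 of the 6 reading frames ran through the whole tag with no stop codon. Wholly masked tags of the same length and AC had such a frame in 115 of 196 cases (58.7%), and 57.3% of the 487 partly masked ones did. The differences from the members were 24.3 points (interval 17.6 to 31.4) and 25.7 points (interval 21.2 to 30.3). Letter case, which the selection used, separates the members from both of these sets. Unmasked tags of the same length with an AC of 100 or more had 82.8%, and the interval of that difference, -4.99 to 6.83 points, includes 0.

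Because short tags meet fewer stop codons, the shares were set side by side within length classes. The share of members with a stop-free frame was 91.6% at 100 to 149 bp, 81.6% at 150 to 199 bp, 69.3% at 200 to 249 bp and 51.9% from 250 bp on. Wholly masked tags gave 77.3, 40, 48.3 and 32% in these classes, and partly masked tags 72.7, 58.6, 52.6 and 19.4%. Members were higher in each class, though for wholly masked tags of 250 bp or more, of which there were 25, the interval of the difference (-0.58 to 35.9 points) includes 0. Stop codons are rich in A and T, and the members had a median GC content of 53.3% against 50% in both masked sets. Among tags with a GC content of 45 to 55%, an alternative chosen after seeing the data, the shares were 79.7% of 1421 members, 62.1% of 103 wholly masked and 52.6% of 249 partly masked tags.

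**Figure D3:**
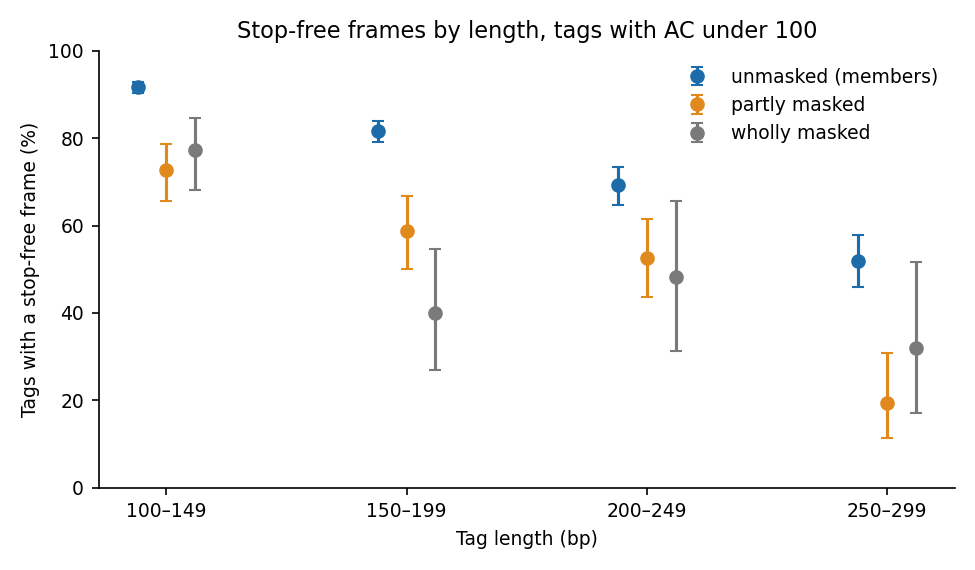
Percentage of tags with at least 1 stop-free reading frame by tag length, for members (blue), partly masked (orange) and wholly masked tags (grey) with an AC under 100; error bars are 95% Wilson intervals. Members fall from 91.6% at 100 to 149 bp to 51.9% from 250 bp on and lie above the other sets in each length class.

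The number of open frames varied among members: 594 had none, 1056 had 1, 1009 had 2, 570 had 3 and 268 had 4 or more. In 1321 members the open frames lay on 1 strand only, 647 on the forward and 674 on the reverse strand. The share with a stop-free frame was 85.7% at an AC up to 10 (interval 83.4 to 87.7), 81.5% from 10 to 20 (interval 79.5 to 83.3) and 82.7% above 20 (interval 80.1 to 85.1). It was 83.3% on the 11 chromosomes and 81.8% on the others, a difference of 1.51 points (interval -1.64 to 4.98).

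A 3-base rhythm, which codon use gives to coding sequence, was also present. Bases 3, 6, 9 or 12 positions apart were identical in 28.5% of pairs, and bases at other spacings up to 12 in 25.9%, a difference of 2.62 points. The same difference was 0.89 points in wholly masked and 1.96 in partly masked tags of the same length and AC, and 1.42 in unmasked tags of 300 bp or more. In unmasked tags of the same length with an AC of 100 or more it was 2.64 points, next to the 2.62 of the members. It was 2.70 points on the 11 chromosomes and 2.23 on the others. The ratio of observed to expected CpG was 0.43 in members, 0.42 in unmasked tags of the same length with an AC of 100 or more, 0.39 in unmasked tags of 300 bp or more, 0.37 in partly masked and 0.27 in wholly masked tags. The polyadenylation signal AATAAA, read on either strand, occurred 0.41 times per kb of member sequence. The rate was 0.35 in unmasked tags of the same length with an AC of 100 or more and 0.54 in unmasked tags of 300 bp or more. Wholly masked, partly masked and small unmasked tags had 0.52, 0.49 and 1.64. These rates were not adjusted for GC content, whose median was 53.3% in members and 41.4% in the small tags.

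The letters at the tag edges differed from those inside. Introns end in AG and begin with GT, so a tag that runs slightly past an exon of the forward strand starts near AG, and one of the reverse strand ends near CT. AG lay within the first 5 bases of 1337 members (38.2%, interval 36.6 to 39.9), against 1009 (28.9%, interval 27.4 to 30.4) for a window of the same size in the middle of the tag. CT within the last 5 bases was found in 33.4% against 31.0% in the middle, and these intervals overlap. The excess of AG sat at bases 2, 3 and 4, where 12.7, 10.4 and 10.9% of members had it, while 7.72% had it at base 5. The longer intron start GTAAG or GTGAG, read on the reverse strand as CTTAC or CTCAC, was within the first 12 bases of 122 members (3.49%) and in the middle of 39 (1.12%). At the other end GTAAG or GTGAG occurred in 69 (1.97%) against 47 (1.34%) in the middle, with overlapping intervals. The edge letters were not particular to the members. Wholly masked tags had AG at the start in 36.7% against 35.7% in the middle, but CT at the end in 37.8 against 28.1% and CTTAC or CTCAC at the start in 3.57 against 0.51%. Unmasked tags of the same length with an AC of 100 or more had AG at the start in 28.8 against 27.6%, CTTAC or CTCAC at the start in 8.59% and GTAAG or GTGAG at the end in 6.13%, both against 1.84% in the middle. A match of a few letters is a description and not a splice site.

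An example with both letters in place is the member of highest AC among the 30 of 3497 that had a stop-free frame, AG in the first 5 bases and GTAAG or GTGAG in the last 12. No count of this combination in other tags or in the middle of tags is given. The 30 serve only to pick the example. It had an AC of 92.1 over 167 bp, and the capitals mark the AG and the GTGAG.
ECA25 tag, chr25:31723635-31723801: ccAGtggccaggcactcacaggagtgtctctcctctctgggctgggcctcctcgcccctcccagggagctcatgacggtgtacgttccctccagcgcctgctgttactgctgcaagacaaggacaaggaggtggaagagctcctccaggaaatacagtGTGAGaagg

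Members lay close together. Of the 3497, 2580 (73.8%, interval 72.3 to 75.2) had another member within 20 kb. For the small unmasked tags of 24 to 34 bp, which are more numerous (4769), the same share was 9.37% (interval 8.58 to 10.2). For the 648 unmasked tags of 300 bp or more it was 45.1%. A set with fewer tags tends to have fewer near neighbours, and the shares were not adjusted for this. The median gap between neighbouring members was 10589 bp, and 672 gaps were at most 1 kb. On the 11 chromosomes 80.1% of members had such a neighbour and on the others 45%, where members were also fewer (631). Members chained by gaps of up to 20 kb formed 623 runs of 2 or more, of which 137 held 5 to 9 members and 42 held 10 or more, while 917 members stood alone. Members with another member within 20 kb had a stop-free frame in 85.4% of cases and those without in 76.3%, a difference of 9.05 points (interval 6.06 to 12.2). Their median GC content was 53.9% against 51.5%, and its part in that difference was not tested.

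Neighbouring members shared the strand of their open frames more often when near. Among neighbours up to 20 kb apart that were each open on 1 strand only, 213 of 289 pairs (73.7%, interval 68.3 to 78.4) were open on the same strand. Among neighbours over 100 kb apart, 86 of 177 (48.6%, interval 41.3 to 55.9) were, a difference of 25.1 points (interval 16 to 33.8). By distance the share was 70.2% up to 1 kb, 78.4% from 1 to 5 kb, 71.3% from 5 to 20 kb and 61.0% from 20 to 100 kb. The difference between near and far neighbours was 27.0 points on the 11 chromosomes (interval 16.2 to 37.1) and 25.6 on the others (interval 5.21 to 41.7). Without members similar to another member it was 23.6 points (interval 14.4 to 32.3).

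**Figure D4:**
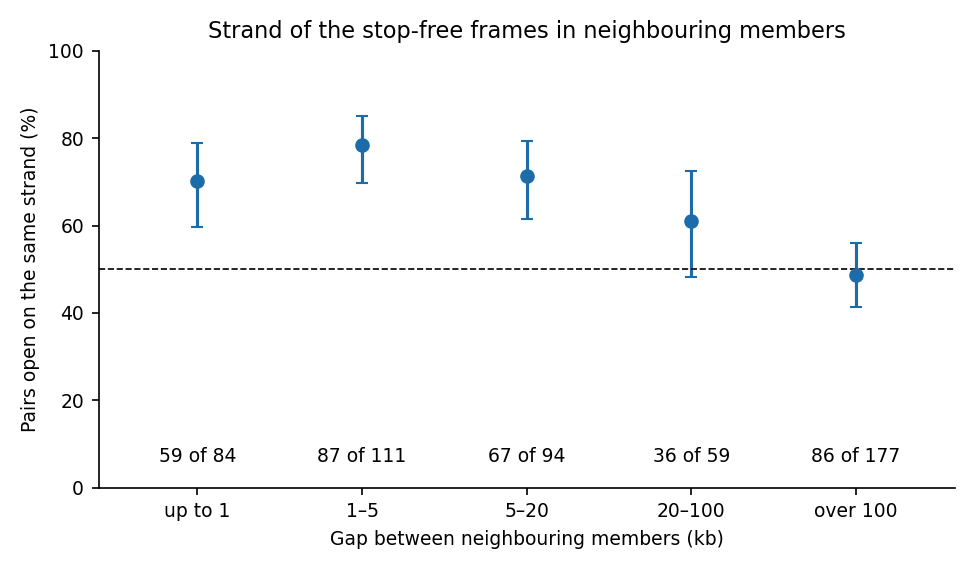
Percentage of neighbouring member pairs open on the same strand, by the gap between them, with 95% Wilson intervals and the pair counts below; the dashed line is at 50%. The shares are 70.2, 78.4 and 71.3% up to 20 kb and 48.6% beyond 100 kb.

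The median absolute log2 ratio of AC was 0.57 for pairs up to 1 kb apart and 0.57 for pairs over 100 kb apart, and 73.4 and 69.2% of these pairs were within a factor of 2. The selection limits AC, and with it these ratios, at any distance. In the 179 runs of 5 or more members, the highest AC was a median of 3.95 times the lowest.

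The longest runs held 17 to 27 members each. The longest lay on ECA14, with 27 members and AC values of 7.1 to 64.25. The second lay at chr12:11330905-11355758, with 24 members in 24854 bp, a median gap of 625 bp and AC values of 9.07 to 95.5. Of these 24, 23 had a stop-free frame. On ECA11, 22 members at chr11:51358496-51419947 had AC values of 10.15 to 49.89, and 6 of the 7 open on 1 strand only were open on the reverse. A further 18 at chr11:26164578-26205803 had AC values of 7.33 to 79.2, and 6 of the 7 open on 1 strand only were open on the forward. The fifth run, chr10:21651445-21773292, differed: only 6 of its 17 members had a stop-free frame. It also held 15 other tags, 3 of them with an AC of 100 or more. A run on ECA16, chr16:36186010-36243632, also held 17 members, 15 of them with a stop-free frame, at AC values of 10.37 to 82.72. Outside ECA11 the strands were more mixed. Members open on the forward and on the reverse strand only numbered 1 and 4 on ECA14 and 2 and 4 on ECA12. They numbered 1 and 1 on ECA10 and 2 and 5 on ECA16.

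The ECA14 run was an array of near copies. Of its 27 members, 18 fell into families of sequences with at least 80% identity: 8 copies of 271 to 293 bp at the start of the run and 10 copies of 280 to 290 bp further on. The 8 copies had AC values of 7.1 to 16.19 (median 8.02), and the 10 copies had 51.77 to 64.25 (median 59.12), so the families did not overlap in AC. Identity was 82.1 to 96.7% among the 8 and 91.8 to 100% among the 10. Each of the 18 had a stop-free frame. The motif around the conserved tyrosine of immunoglobulin-type domains (aspartate, glycine or alanine, tyrosine and cysteine, with 1 residue of any kind between each) was found in a stop-free frame of 24 members in all. Of these, 21 lay in this run, all 18 copies among them. The same motif stood in a stop-free frame of 1 of the 487 partly masked tags, 0 of the 196 wholly masked ones, 1 of the 163 unmasked tags with an AC of 100 or more, 1 of the 4769 small tags and 2 of the 648 unmasked tags of 300 bp or more. Immunoglobulin-type domains are repeated many times in cell adhesion and muscle filament proteins. No gene name was available for the run, and the motif was chosen after the sequences were seen.

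**Figure D5:**
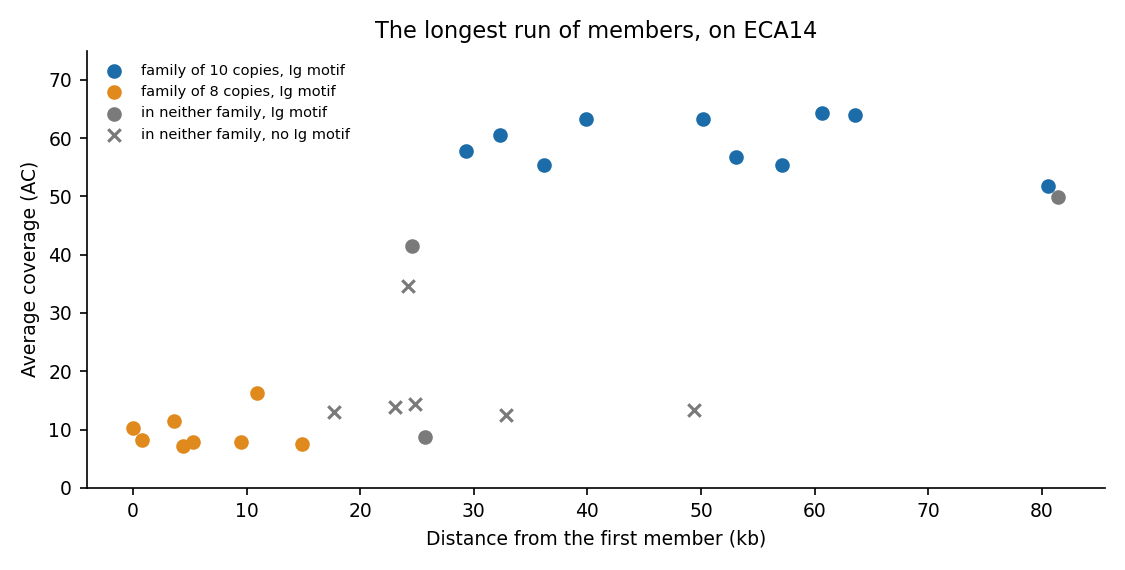
AC of the 27 members of the longest run against distance from its first member, with circles for members that hold the immunoglobulin-type motif and crosses for those that do not. The 8 copies of the first family lie at AC values of 7.1 to 16.19 and the 10 copies of the second at 51.77 to 64.25.

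In the ECA14 run, 2 of the 10 copies were identical in sequence and had the same AC, 63.34. This was general: 5 pairs of members had identical sequences, each pair on 1 chromosome, and both tags of each pair had the same AC. A read lying wholly within such a pair cannot be assigned to 1 of the copies, and these values are uncertain as levels of either. The study's methods describe removing reads that match several places about equally well. Yet both tags of each pair, 113 to 281 bp long, had an AC, from 6.95 to 63.34 over the pairs. How such reads were counted was not tested. The AC values of the near copies in both families of the ECA14 run are therefore uncertain as levels of single copies too.

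With at least 80% identity over 40 bp and 50% of the tag, 213 members (6.09%) resembled another tag and 146 (4.18%) another member. No share for another set was computed. Linked where either tag of a pair met this limit over its own length, 156 members formed 49 families, 37 of them of 2. The largest family had 31 members, 24 of them on ECA10, with AC values of 6.3 to 96.72 (median 12.82) and a median length of 135 bp. The core of the KRAB A box, a repressor domain found ahead of the zinc fingers in a large class of transcription factors, was encoded in 19 members. All 19 belonged to this family, 16 of them on ECA10, and in 15 the frame had no stop. None of the 5 comparison sets held the KRAB motif, but tags of 24 to 34 bp are too short to hold it. At the member share of 0.543%, the sets of 163, 196 and 487 tags would hold few or none. The KRAB motif is therefore not shown to be particular to the members. C2H2 zinc fingers themselves, usually coded by 1 long last exon, stood in a stop-free frame of 7 members and of 18 of the 648 unmasked tags of 300 bp or more. They also stood in a stop-free frame of 1 of the 196 wholly masked tags. In any frame the shares were 0.458% of members, 5.09% of the unmasked tags of 300 bp or more and 1.02% (2 tags) of the wholly masked ones. The catalytic loop of protein kinases was found in 5 members, of which the one at chr11:58668776-58668954 had an AC of 81.38 and the others 9.01 to 15.49. As a share this was 0.143%, next to 0.154% (1 tag) of the 648 unmasked tags of 300 bp or more. These motifs too were chosen after the data were seen.

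The KRAB members of highest and lowest AC and the one on ECA13 are printed to show the shared core, with its codons in capitals. The core is on the forward strand in the first pair and on the reverse strand in the last, and the frame of the ECA10 tag of AC 6.3 holds a stop outside the core.
ECA10 tag, AC 37.25, chr10:25421020-25421152: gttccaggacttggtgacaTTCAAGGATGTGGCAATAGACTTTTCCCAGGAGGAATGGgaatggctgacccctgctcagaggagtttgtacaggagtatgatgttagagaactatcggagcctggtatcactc
ECA10 tag, AC 6.3, chr10:7403495-7403629: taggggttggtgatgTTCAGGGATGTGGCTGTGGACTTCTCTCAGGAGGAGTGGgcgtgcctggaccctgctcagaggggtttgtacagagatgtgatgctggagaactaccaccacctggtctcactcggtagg
ECA13 tag, AC 18.84, chr13:2200632-2200762: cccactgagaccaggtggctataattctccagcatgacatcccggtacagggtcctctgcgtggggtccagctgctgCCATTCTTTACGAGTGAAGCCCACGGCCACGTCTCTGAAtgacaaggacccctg

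Likeness to the most abundant RNA was also examined. None of the 3497 members resembled any of the 56 tags with an AC of 10000 or more. Every member was searched, and leaving out masked repeats bears on this count. As a counting error alone, the limit of 3 counts that a count of 0 allows is a share of up to 0.0858% (the Wilson upper limit is 0.110%). But 16 members on 5 chromosomes resembled the mitochondrial genome, with 90.1 to 99.2% identity and AC values of 9.9 to 59.79 (median 20.93). Mitochondrial RNA is abundant in sperm, whose midpiece holds the mitochondria, and copies of mitochondrial DNA also lie in nuclear chromosomes. The longest mitochondrial tag had an AC of 4390.4. Of the 16 members, 9 lay within 6629 bp at chr27:5203427-5210055, all in reverse orientation to the mitochondrial sequence, and 4 within 5115 bp at chr1:139009792-139014906, all in forward orientation. The member on ECA31, at chr31:16521495-16521621, had the highest identity, 99.2% over 125 bp, and an AC of 29.2. Whether reads at these 16 tags came from the nuclear or the mitochondrial sequence was not tested.

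The ECA27 member of AC 59.79 is set beside the matching mitochondrial stretch, read on its reverse strand, with the 9 differing bases of 100 in capitals.
ECA27 tag, chr27:5205398-5205497: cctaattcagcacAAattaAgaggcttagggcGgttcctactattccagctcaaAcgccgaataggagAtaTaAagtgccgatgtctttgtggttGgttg
Mitochondrial tag, chrM:5387-5486: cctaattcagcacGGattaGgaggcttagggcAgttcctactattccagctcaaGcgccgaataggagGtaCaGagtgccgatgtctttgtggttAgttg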

How the data were processed

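Sperm RNA of 2 stallions was sequenced on the SOLiD 4 platform as 50 bp single-end reads. The authors aligned them to EcuCab2 with NovoalignCS 1.00.09, shortened unaligned reads and clustered alignments into tags with the EXP pipeline. The study's methods also describe removing any read that matched more than 1 place about equally well. Both tags of each identical pair of members nevertheless had an AC, and how far this removal reached was not tested. The deposited signal is average coverage per tag, scaled by the authors to the sample with fewest reads, as 1 value for both samples together. Values per stallion are in a supplementary table of the study, held here only in part and not analysed, so differences between the stallions were not measured. In the part held, nearly all deposited values equal the larger of both stallions' values.

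Members, lists and motifs were chosen with earlier results of these data known. No test was run over tags: shares were compared by intervals. Frames, spacing and motifs were computed with Python 3.11.15 and intervals with scipy 1.17.1, after the scripts were tested on simulated data. Similarity was searched with blastn 2.17.0 (word size 11, E-value 1e-05). Named tags are those at coordinates in the study's tables, the 10 of highest AC, those at each limit and the 5 longest runs with ties. Protein, promoter and microRNA sequences for this build were not used here, so the planned matches and gene lists were not run. The sequences of 1 family of tags are not reported here.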

Additional observations from a re-analysis of the deposited data

How the results depend on the processing

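The selection was changed in AC, in length (both limits together) or in letter case, and the numbers of members and of similar tags stayed within 1.5 times the reported ones. Members were 17.4% of placed tags with an AC under 50, 13% with an AC over 10 and 13.7% at 120 to under 280 bp. The overall GC content of 53.3% became 52.9% with an AC over 10. The share with a stop-free frame was 81.1% at 120 to under 280 bp and 87.8% without the first and last 10 bases. The share with another member nearby was 68.7% with an AC over 10, 68.2% at 120 to under 280 bp, 58.9% for gaps up to 5 kb and 79.4% up to 50 kb. As a share of unmasked tags, members were 33.2% on ECA1 and ECA10 to ECA19 and 15% on the other 21 chromosomes. Alternatives chosen after seeing the data gave a GC content of 53.5% on those 11 chromosomes and 52.2% on the others, a neighbour within 20 kb for 80.1 and 45%, a same-strand share of 78.8% on the others (33 pairs), and a stop-free frame in 79.7% at a GC content of 45 to 55%. The cause of these shifts was not tested, beyond the smaller sets and the gap limits themselves. Leaving out each stallion was not run, since the deposited table has 1 value per tag. No paired analysis was possible because the result comes from no test and the group is single. The matches to proteins, with their alternative E-values, were not run.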
